A study of Mus musculus with 6 samples.

Results

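The Hoxb genes described here are Hoxb2, Hoxb3, Hoxb4, Hoxb5, Hoxb9 and the long non-coding transcript Hoxb5os, which is annotated on the strand opposite to Hoxb5. They were taken by name, with every probe set whose platform annotation names only 1 of these genes. This gave 8 probe sets of 45101, and 6 genes of 18193 named on the array. The names were chosen with the values of these arrays known, so the differences between groups are given as descriptions, without a test. The samples were sorted mouse bone marrow cells carrying MLL-AF9, an oncogenic fusion found in acute leukaemia. In 3 of them Mn1, the gene of a transcriptional cofactor, was intact (MLL-AF9/Mn1wt), and in the other 3 it had been deleted with CRISPR-Cas9 (MLL-AF9/Mn1null). All 6 samples had received an EGFP control vector and had grown with mIL3, hIL6 and mSCF, 3 cytokines that sustain early myeloid cells. The labels name neither a guide, a clone, the age of the mice nor the number of cultures, so the spread between samples may be technical.

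Hox genes encode homeodomain transcription factors and lie in 4 clusters, in each of which the order of the genes follows the body axis along which they act. In blood formation, Hox proteins bind DNA together with PBX and MEIS partners, and their genes are active in stem and early progenitor cells and silenced as cells mature. The MLL protein keeps Hox genes active, and MLL fusions are best known for sustaining Hoxa genes and Meis1. Within the Hoxb cluster, forced expression of Hoxb4 expands blood stem cells, and Hoxb5 has been used as a marker of long-term stem cells in mice.

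In the RefSeq gene order, read from the Hoxb1 end, the transcripts follow as Hoxb1, Hoxb2, Hoxb3, Hoxb4, Hoxb5, Hoxb6, Hoxb7, Hoxb8, Hoxb9 and Hoxb13. The non-coding Hoxb3os lies between Hoxb2 and Hoxb3 and its gene model overlaps both. The Hoxb5os model overlaps Hoxb5 and Hoxb6, and the Hoxb3 model overlaps Hoxb4. Probe positions were not analysed here, and signal could not be divided between overlapping transcripts. The RefSeq promoter table held 1 of the 6 genes, Hoxb4. Its 250 bases before the annotated start (GRCm38.p6, chr11:96318017-96318266, plus strand, the non-coding DNA just upstream of the first exon) are shown because both Hoxb4 probe sets were lower in Mn1null. Capitals mark the match to a searched motif.
Hoxb4 promoter: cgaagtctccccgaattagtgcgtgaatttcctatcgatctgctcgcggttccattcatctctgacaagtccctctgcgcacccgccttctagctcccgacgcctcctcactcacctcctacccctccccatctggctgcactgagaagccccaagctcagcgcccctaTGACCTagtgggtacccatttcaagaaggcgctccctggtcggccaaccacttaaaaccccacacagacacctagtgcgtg
This stretch holds 14 CG pairs and 58% G and C, against medians of 6 and 52% over the same window of 27025 RefSeq promoters. On both strands, 5 motifs were searched. AGGTCA, a half-site bound by nuclear receptors such as the retinoic acid receptors, matched 1 time, on the minus strand, starting 81 bases before the start. It is found in 13.8% of all promoters of this length. The letters TGATTNAT (PBX with HOX, 2.99% of promoters), TGACAG (MEIS, 16%), CCAAT (NF-Y, 34.5%) and CACGTG (USF, 6.05%) are not in this window.

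Probe-set values are log2 expression values on the RMA scale, on which 1 unit is a doubling of signal. A level of 4.07, the 30th percentile of all probe sets, served as the filter level, and signal below it was treated as close to the floor of the array. Array medians lay between 5.17 and 5.23. Mn1 itself, read by 1 probe set, lay near the filter level at 4.35 ± 0.20 in Mn1wt and 4.13 ± 0.071 in Mn1null (SD, n = 3 each), a difference of -0.22 that missed the threshold (limma, adjusted p = 0.121). Without Mn1wt replicate 2 it was -0.33 (limma, adjusted p = 0.00726). Whether these probes lie in the deleted part was not analysed here. The signal therefore does not check the labels. The controls added before labelling, which are bacterial transcripts, were also lower in Mn1null, by -0.85 at their 5′ probe sets (8 of 8 without overlap), -0.49 in the middle and -0.30 at the 3′ end. The part of this shift in the Hoxb differences was not tested.

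Signal of Hoxb2, Hoxb3, Hoxb4, Hoxb5 and Hoxb5os was lower in every Mn1null array than in every Mn1wt array. This held for 7 of 8 probe sets and 5 of 6 genes, and 0 probe sets were higher without overlap. Hoxb9 lay near the filter level in both groups, and its groups overlapped. Over all 45037 probe sets that are not array controls, 21.4% were lower without overlap and 41.1% lay apart in either direction. Of the 14680 genes tested with limma, 48.8% passed. The differences ran from -3.33 for Hoxb2 to 0.010 for Hoxb9, with a median of -1.67 over the 8 probe sets, against -0.0053 over all genes tested. A difference of -1 or below was seen in 5 of the 8 probe sets and in 1.47% of all probe sets. Nothing is read from these shares, since the genes were chosen on the same arrays. In bulk RNA, fewer cells that express a gene and less RNA per cell cannot be told apart.

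**Figure D1:**
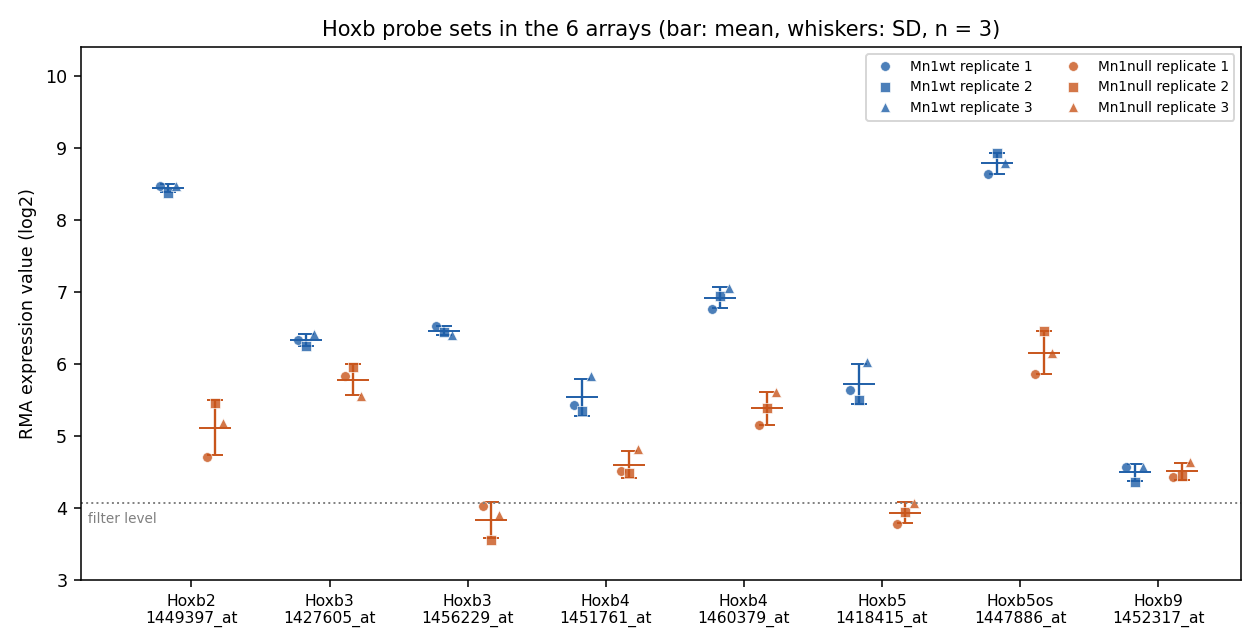
RMA expression value (log2, vertical axis) of the 8 Hoxb probe sets, by gene name, in 3 Mn1wt arrays (blue) and 3 Mn1null arrays (orange); the bar is the mean, whiskers are the SD, and the dotted line is the filter level of 4.07. The groups stand apart for 7 probe sets, most widely for Hoxb2, and overlap for Hoxb9.

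Hoxb2, a regulator of hindbrain patterning that is also expressed in blood progenitors, had the largest measured difference of the 6 genes. As 1 Hoxb3 probe set and Hoxb5 were under the filter level in Mn1null, their differences are lower bounds and cannot be ranked against it. Its values were 8.48, 8.38 and 8.48 in Mn1wt and 4.70, 5.46 and 5.18 in Mn1null. The Mn1wt arrays lay close together, the Mn1null arrays were spread more widely, and the nearest arrays of the groups were 2.92 apart. The means were 8.45 ± 0.055 and 5.12 ± 0.38 (SD, n = 3 each). The difference was -3.33 (95% interval -3.73 to -2.93), which is 10.1-fold. All 3 Mn1null values stayed above the filter level.

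Hoxb3 was read by 2 probe sets that gave differences of very unequal size. Together with Hoxb4 this gene is known for supporting the proliferation of blood stem cells. Probe set 1456229_at read 6.53, 6.45 and 6.41 in Mn1wt and 4.03, 3.55 and 3.91 in Mn1null. All 3 Mn1null arrays were below the filter level, so the difference of -2.63 (-2.92 to -2.35) is compressed by the floor. Set against the filter level itself, the signal was at least 5.24-fold lower. Probe set 1427605_at read 6.34, 6.25 and 6.41 in Mn1wt and 5.84, 5.96 and 5.55 in Mn1null. It was lower in each Mn1null array too, but by -0.55 (-0.81 to -0.29), with a gap of 0.28 between the groups. Within each array, the first minus the second probe set was 0.19, 0.20 and -0.0062 in Mn1wt and -1.81, -2.41 and -1.64 in Mn1null. Levels of different probe sets are not on a common scale, and 1456229_at was under the filter level in Mn1null, so only the change of this quantity between groups is described. It was lower in every Mn1null array than in every Mn1wt array. They derive from 2 different source sequences in the annotation, and the Hoxb3 transcripts that each one reads are not named there. When genes are represented by their brightest probe set, Hoxb3 is represented by the one with the smaller difference.

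Hoxb4, whose promoter is printed above, was lower on both of its probe sets. Probe set 1460379_at read 6.77, 6.95 and 7.05 in Mn1wt and 5.15, 5.39 and 5.61 in Mn1null, a difference of -1.54 (-1.83 to -1.24) or 2.91-fold. Probe set 1451761_at read 5.43, 5.35 and 5.83 against 4.52, 4.48 and 4.81, a difference of -0.93 (-1.27 to -0.60) or 1.91-fold. Its Mn1null values lay above the filter level but near it, so this difference may be compressed by the floor. On each probe set replicate 3 was the highest array of its group, and the groups stayed 1.16 and 0.53 apart. The annotation gives both probe sets the same source sequence, so they are not independent readings.

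Hoxb5, the stem cell marker gene, had modest signal in Mn1wt and read near the floor in Mn1null. Its values were 5.64, 5.50 and 6.03 in Mn1wt and 3.78, 3.95 and 4.07 in Mn1null. The Mn1null arrays were all below the filter level, and replicate 3 was the highest of each group. The difference of -1.79 (-2.12 to -1.46) corresponds to 3.46-fold as measured and to at least 3.14-fold when set against the filter level.

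Hoxb5os read 8.65, 8.94 and 8.79 in Mn1wt and 5.86, 6.46 and 6.15 in Mn1null. The groups were 2.19 apart, and both lay well above the filter level. The means of 8.79 ± 0.15 and 6.16 ± 0.30 (SD, n = 3 each) gave a difference of -2.63 (-2.99 to -2.28), or 6.20-fold. The transcript on the opposite strand thus differed in the same direction as Hoxb5 itself. The floor limits the Hoxb5 reading alone, so the sizes of these differences were not compared.

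Hoxb9, a posterior member of the cluster that patterns the trunk, was near the filter level throughout. It read 4.56, 4.36 and 4.56 in Mn1wt and 4.43, 4.45 and 4.64 in Mn1null. The groups overlapped, and the difference was 0.010 with a 95% interval of -0.20 to 0.22. A change hidden by the floor would not be seen at this level.

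The arrays within Mn1null did not keep one order across the genes. Among the 7 lower probe sets, Mn1null replicate 1 was the lowest array for 4, replicate 2 for 2 and replicate 3 for 1, and replicates 2 and 3 were each the highest for 3. The spread was larger in Mn1null than in Mn1wt for 5 of the 8 probe sets.

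Signal of the other Hoxb genes was close to the floor, and only Hoxb6 differed without overlap. Hoxb1 (3.01 and 3.01 in Mn1wt and Mn1null), Hoxb6 (4.07 and 3.77), Hoxb7 (3.77 and 3.79) and Hoxb13 (3.60 and 3.67) all had means under the filter level, and 0 of these 4 were tested. Hoxb6, which lies next to Hoxb5 and under the Hoxb5os model, was lower without overlap by -0.29, from 3.97, 4.28 and 3.95 to 3.59, 3.82 and 3.91. A probe set annotated to both Hoxb8 and Hoxb7 lay between 3.03 and 3.20 in all 6 arrays. Hoxb1 and Hoxb13 were under the filter level in all 6 arrays, and Hoxb6 and Hoxb7 in 5 of 6. The Hoxb6 mean in Mn1wt lay just under that level, so where along the cluster the lower signal ends depends on the filter.

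**Figure D2:**
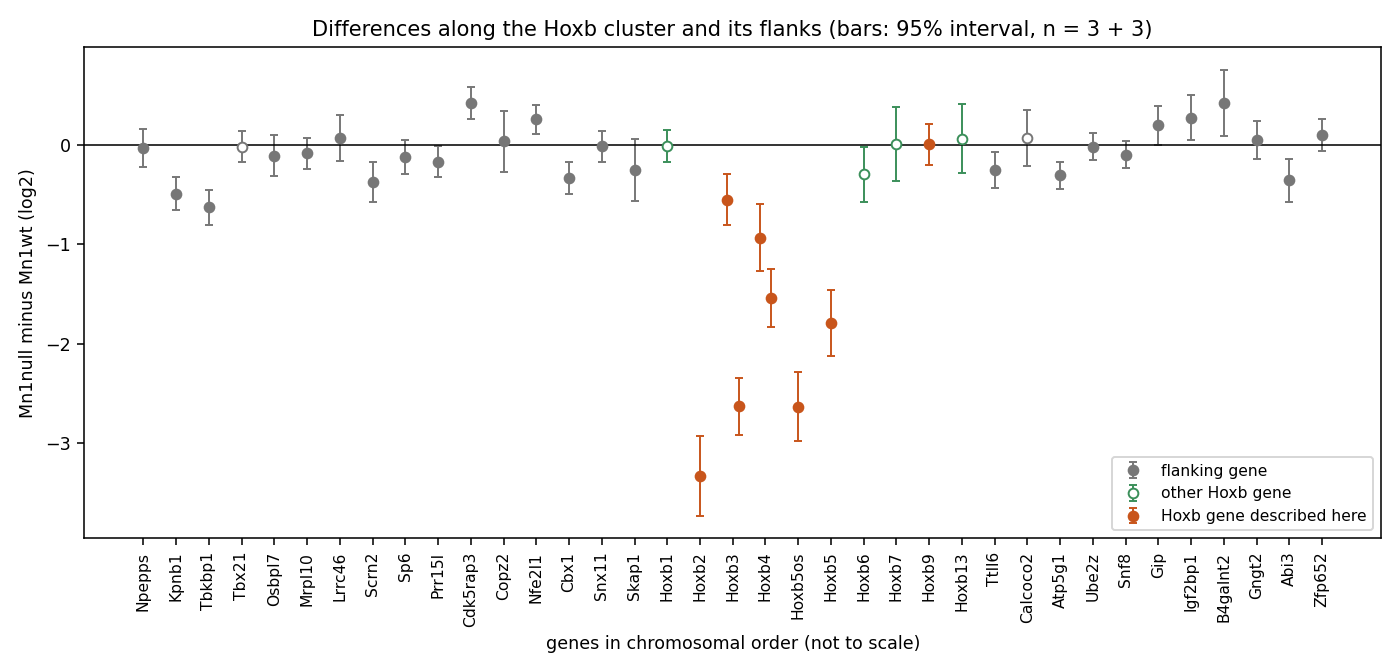
Mn1null minus Mn1wt difference (log2, vertical axis) for 1 probe set per flanking gene and per other Hoxb gene and for all 8 probe sets of the Hoxb genes described, in chromosomal order and not to scale; bars are 95% intervals, and open symbols mark means under the filter level. The 7 low points from Hoxb2 to Hoxb5 lie between -0.55 and -3.33, and the 27 flanking genes lie between -0.62 and 0.43.

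Genes on either side of the cluster, each read by its brightest probe set, differed in both directions, by -0.62 to 0.43. Some of their other probe sets went further. Another Tbkbp1 probe set gave -0.72 and another of Zfp652 gave 0.71, both without overlap. In limma's test 4 of 25 flanking genes rose and 8 fell (median -0.082), while 23.2% of all 14680 genes tested rose and 25.6% fell. With quantile normalization, or without Mn1wt replicate 3, Mn1null replicate 2 or Mn1null replicate 3, the rises numbered 2. Igf2bp1 (0.28) lost its call in 9 alternatives, with 0.017 from probe sets for 1 transcript only. Another Igf2bp1 probe set was lower without overlap, by -0.20. Prr15l (-0.17) lost its call in 10 alternatives. The lowest was Tbkbp1, a binding partner of the kinase TBK1, which fell from 8.19 ± 0.076 to 7.56 ± 0.095 (SD, n = 3 each), by -0.62 (adjusted p = 2.53e-04). Kpnb1, the nuclear import receptor importin beta, fell by 0.49 (adjusted p = 5.81e-04), and Cdk5rap3 rose by 0.42 (adjusted p = 8.75e-04). B4galnt2 rose by 0.43, a call lost with quantile normalization (adjusted p = 0.0507) and on leaving out either of 2 arrays per group. Without Mn1null replicate 3 another probe set was the brightest and represented B4galnt2, with a difference of 0.081. Skap1, the flanking gene next to Hoxb1, differed by -0.25 (adjusted p = 0.165) near the filter level. Other Skap1 probe sets, with means under that level, were higher without overlap, by 0.11 and 0.19. Ttll6, next to Hoxb13, fell by 0.25 (adjusted p = 0.0209), and lost this call with the replicate number as a block and on removal of either of 2 arrays per group (largest adjusted p = 0.0634 over its alternatives). The difference between cluster and flanks was not tested, since the Hoxb genes were chosen on these arrays.

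Of the Hoxa genes in the same paralog groups, Hoxa2, Hoxa5 and Hoxa9 fell, and Hoxa3 and Hoxa4 did not pass the test. Paralog groups are genes of different clusters that descend from 1 ancestral gene. Hoxa5 fell from 9.85 ± 0.042 to 8.04 ± 0.043 (SD, n = 3 each), by -1.81 (adjusted p = 5.52e-07) with -1.07 on its other probe set, beside -1.79 for Hoxb5. Hoxa2 fell by 0.32 (adjusted p = 0.0348) beside -3.33 for Hoxb2, and its call was lost on removal of Mn1wt replicate 1 or 2 or Mn1null replicate 1 or 3 (up to 0.103). Hoxa3 (-0.15, adjusted p = 0.389) and Hoxa4 (-0.23, adjusted p = 0.159) did not pass, with Hoxb3 at -2.63 and -0.55 and Hoxb4 at -1.54 and -0.93. Hoxa9, a main effector of MLL fusions, fell by 0.31 (adjusted p = 0.0011), while Hoxb9 differed by 0.010. Of 9 genes tested in the Hoxa list, which includes the neighbouring gene Evx1, 1 rose (Hoxa11, by 1.04, adjusted p = 5.30e-04) and 4 fell. Their median was -0.23, and of all genes tested 23.2% rose and 25.6% fell. The paralogs were not tested against each other.

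**Figure D3:**
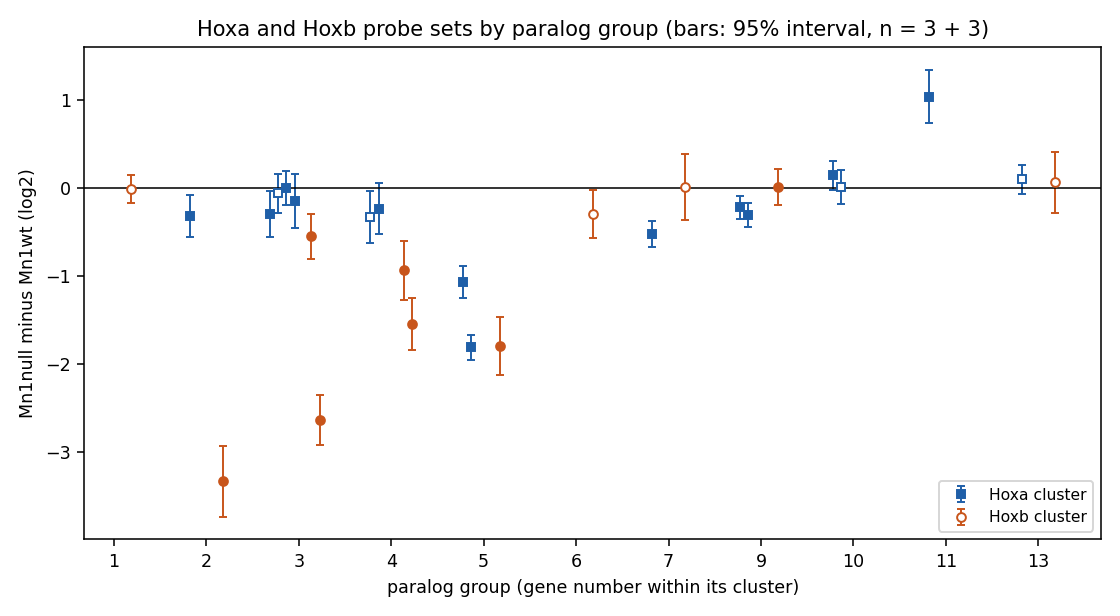
Mn1null minus Mn1wt difference (log2, vertical axis) of every Hoxa (blue squares) and Hoxb (orange circles) probe set that names 1 gene, by paralog group; bars are 95% intervals, and open symbols mark means under the filter level. Hoxb2 at -3.33 stands beside Hoxa2 at -0.32, and Hoxb5 at -1.79 beside the Hoxa5 probe sets at -1.81 and -1.07.

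Genes of HOX partners showed both directions: 3 of the 9 tested rose and 1 fell (median 0.12), against 23.2% and 25.6% of all genes. Pbx3, which encodes a HOX cofactor, rose by 2.37 ± 0.082 (SE) and Pbx4 by 0.99 ± 0.14, while Pknox1, a relative of the MEIS genes, fell by 0.81 ± 0.069. The third rise was that of Meis1, by 0.24, a call that averaging over its probe sets ended (adjusted p = 0.12). Pknox2, another MEIS relative, did not pass at -0.076 on its brightest probe set by mean over all arrays, and its other probe set went from 5.66 to 4.28, by -1.38, without overlap.

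Among the regulators on the MLL side, 6 of 18 tested rose and 6 fell (median -0.016), against 23.2% and 25.6% of all genes. Ash2l, a core subunit of MLL complexes, rose by 0.74 ± 0.052, and Mllt3, the mouse gene of the AF9 protein, by 0.88 ± 0.093. The MLL complex subunit Rbbp5 fell by 0.34 and the nucleoporin Nup98 by 0.30. The fusion contains AF9 sequence, and whether these probes also read the fusion was not tested.

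Polycomb and insulator genes, whose products silence or partition Hox clusters, were tested next. Of 23 tested, 12 fell and 3 rose (median -0.14), against 25.6% and 23.2% of all genes. Suz12 and Ezh2, both subunits of the complex that methylates histone H3 at silenced Hox genes, fell by 0.58 ± 0.043 and 0.58 ± 0.047 (adjusted p = 4.58e-05 and 6.86e-05). Of the other Suz12 probe sets, 4 were lower without overlap, by -0.41 to -0.97, and 1420020_at gave 0.11 with overlapping groups. Ring1, a ubiquitin ligase of the other main Polycomb complex, rose by 0.26 ± 0.058, and Rnf2 by 0.20. The Rnf2 call was lost with median centring (adjusted p = 0.0544) and on removal of replicate 1 or 2 of either group. Without Mn1wt replicate 3 another probe set was the brightest and represented Rnf2, with a difference of 0.49. Over all arrays, 2 other Rnf2 probe sets were higher without overlap, by 0.51 and 0.66, and 2 overlapped.

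Retinoic acid and CDX factors are textbook activators of anterior and central Hox genes in the embryo. Of 14 such genes tested, 2 rose and 1 fell (median 0.0036), against 23.2% and 25.6% of all genes. Rdh10, an enzyme of retinoic acid synthesis, fell by 0.43 ± 0.060, with -0.12 on its other probe set. The receptor gene Rara rose by 0.28 (adjusted p = 0.017), a call lost without Mn1null replicate 1 (0.0583) or 3 (0.0564). Aldh1a3 rose by 0.28 near the floor, and another of its probe sets gave -0.22. Of the 5 genes for USF and NF-Y, factors described at the Hoxb4 promoter, Nfyb fell by 0.32 ± 0.057, Nfyc fell by 0.21 ± 0.049 and Usf2 rose by 0.19. The last call was lost with median centring (adjusted p = 0.0655) and on removal of each array but Mn1null replicate 3 (up to 0.119).

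For each Hoxb probe set, the gene with the most similar pattern was taken as the one with the smallest Euclidean distance between the 6 log2 values, each gene centred on its own mean. Hoxb2 was closest to Dock1, an activator of the GTPase Rac (distance 0.48), which went from 8.14 to 4.68. The other Dock1 probe set differed by -0.76 only. Hoxb5os was closest to Pea15a (0.42), with differences of -2.38 and -0.84 on its 2 probe sets, and the lower Hoxb3 probe set to the small GTPase gene Rab34 (0.30), with -2.60 and -2.51. Hoxb5 was closest to the phosphatase gene Phlpp2 (0.26, difference -1.75; its other probe set, under the filter level, 0.012). The brighter Hoxb4 probe set was closest to Shfl (0.23) and the dimmer one to Rhou (0.16). Within a distance of 1 of these Hoxb4 probe sets lay 438 and 3263 genes, so the match to Rhou singles out little. For the second Hoxb3 probe set the closest was Rrs1 (0.13) and for Hoxb9 it was Rcn3 (0.068), but 10117 and 12336 genes lay within a distance of 1 of these, so these matches single out little. Within the same distance of Hoxb2 there were 30 genes. With 6 arrays in 2 groups, likeness mostly reflects the size of the group difference.

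Markers of blood lineages differed between the same arrays, on which 23.2% of all genes tested rose and 25.6% fell. Early myeloid genes were bright in both groups, with an array mean of 12.00 to 12.03 in Mn1wt and 12.06 to 12.12 in Mn1null over 10 genes, of which 5 rose and 3 fell. Of 17 stem and progenitor genes tested, 11 rose and 4 fell (median 0.72, array means 8.34 to 8.41 and 8.85 to 8.93 over the 18 genes with a probe set). Myct1 rose by 1.97 and Adgrg1 by 1.78, while Prdm16, needed for stem cell upkeep, fell by 2.05, as did Lmo2, by 0.83. Genes of this list thus mostly differed in the direction opposite to Hoxb4 and Hoxb5. Monocyte genes fell in 6 of 10 and rose in 2 (array means 7.81 to 7.93 and 6.23 to 6.38), and mast cell and basophil genes rose in 7 of 11 (at most 7.02 in Mn1wt and at least 8.57 in Mn1null). The part of these shifts in the Hoxb differences was not tested.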

How the data were processed

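The authors deposited 1 log2 value for each probe set and array; the submitters' processing notes name RMA, with no version. This method corrects background, brings arrays to 1 distribution and summarises probes, which hides overall differences between arrays and compresses low signal. Of 45101 probe sets, 64 controls were left out of all tests. The platform annotation gave 1 gene for 34945, several for 932 and no entry for 9160, and a gene was named only from the first kind. The number of arrays limits the precision.

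Each Hoxb probe set was described from a fit on all 45037 probe sets with no filter. Other genes were tested with the brightest probe set of each gene above the 30th percentile, 14680 genes. Both are limma (3.58.1, R 4.3.3) fits with moderated variances, taking Mn1wt from Mn1null. Tests were 2-sided with p-values adjusted after Benjamini and Hochberg at a threshold of 0.05, and 7170 genes (48.8%) passed. Every adjusted p comes from this limma model or, where a setting is named, from its refit under that setting. The steps were tested on simulated data with known differences.

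The Hoxb genes and all gene lists were chosen with earlier results of these data known, and no list was tested as a set. Named genes were the Hoxb genes, Mn1, the lists on the cluster and its flanks, and the closest pattern to each Hoxb probe set. Of each other list, up to 2 genes per direction with the smallest p were named. Candidates for the closest pattern left out predicted genes and the Hoxb genes described here. Of the lineage lists, eosinophil, neutrophil, erythroid, megakaryocyte, B cell, T and NK cell and stromal markers stand under other observations. RefSeq (GRCm38.p6) gave gene order and the promoter. Alternatives were other normalizations, filters, probe set rules, spread models, a threshold of 0.01, the replicate number as a block and each array left out in turn.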

Additional observations from a re-analysis of the deposited data

How the results depend on the processing

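All 72 recomputed differences of the 8 Hoxb probe sets moved by less than the spread between replicates, under quantile normalization, median centring, the replicate block and each array left out. Only quantile normalization and median centring could have moved them further. The replicate block leaves differences unchanged in this balanced design, and leaving out 1 of 3 arrays cannot shift one beyond this spread. Without single arrays, Hoxb2 ranged from -3.50 to -3.12 and the smaller Hoxb3 difference from -0.64 to -0.43. The median over the 8 probe sets then ranged from -1.76 to -1.56. With quantile normalization and with median centring, 7 probe sets stayed lower without overlap. Leaving out an array cannot lower this count, so nothing is read from it in those runs. The genes past the threshold numbered 5460 (threshold of 0.01) to 7590 (intensity trend with robust eBayes), against 7170. Of 111 genes tested in the lists on Hox clusters, flanks and regulators, 54 passed, and 36 to 56 under the alternatives. Same-numbered arrays deviated together with correlations of -0.039, 0.11 and 0.080, so the numbers were not treated as pairs. With the replicate block 6943 genes and 52 list genes passed, and the median of the Hoxb differences stayed at -1.67 by construction. Of the genes named here, the calls of Hoxa2, Rnf2 and Ttll6 were lost with the block (adjusted p = 0.0638, 0.063 and 0.0514). Aldh1a3 turned to -0.22 with probe sets for 1 transcript only, because another probe set then represents it. Signal near the floor limits Hoxb5, Hoxb9, 1 Hoxb3 probe set and, in Mn1null, the dimmer Hoxb4 probe set.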

Other observations

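Of 5 Hoxc and 3 Hoxd list genes tested, 0 passed limma's test in either direction, and 0 had an unadjusted p under 0.05. Their differences ran from -0.22 to 0.13 and from -0.11 to 0.10. Hoxc9 read 6.48 in Mn1wt and 6.61 in Mn1null, above the filter level in all 6 arrays. Of the 9 Hoxd list genes with a probe set, 6 were under the filter level in all 6 arrays.

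Among markers of other lineages, 7 of 9 neutrophil genes rose and 1 fell, and 5 of 5 eosinophil genes rose, with Prg2, a granule protein, at 3.51. Of 9 erythroid genes 3 rose, among them Icam4 by 2.11, and 3 fell, among them the embryonic globin Hbb-bh1 at -2.06. Of 8 megakaryocyte genes 4 rose, with Itga2b at 3.62, and 3 fell, with Selp at -2.69. B cell genes (1 of 6 rose, 1 fell), T and NK cell genes (1 of 7 rose, Lat by 2.30) and stromal and endothelial genes (1 of 8 rose, Pecam1 by 1.78, and 1 fell) gave few calls. Blnk, Rag1, Cd3g, Col3a1 and Lum were under the filter level in all 6 arrays. Beside these counts, 23.2% of all genes tested rose and 25.6% fell.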
